A study of Oryza sativa with 4 samples.

Results

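The 10 genes described here belong to the cytokinin pathway of rice: 8 type-A response regulators (RR1 to RR6, RR9 and RR10), the cytokinin dehydrogenase CKX2 and the cytokinin-activating enzyme LOG. They were taken from the count table by a list of locus identifiers and are 10 of the 37858 genes listed. All 10 were in the table and 9 had at least 1 count. Gene names follow that list, as neither the count table nor the gene table used here pairs these identifiers with names (0 of 10 matched). Leaf RNA was sequenced from 2 HDS plants, grown from seeds that had matured at 30 °C (heat-treated during development seeds), and from 2 CS plants, grown from control seeds that had matured at 25 °C. Each library came from a single plant of the cultivar Nipponbare. Both kinds of plant then grew under natural conditions without a heat treatment of their own, and fully developed leaves were taken at the vegetative stage. The temperature of the mother plants during grain filling is the only labelled difference, so anything else that differed between the 2 seed lots cannot be told apart from it.

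Cytokinins are adenine-derived hormones that promote cell division in shoots, delay leaf senescence and convey nitrogen status. LOG releases the active free base from cytokinin nucleotides, and cytokinin dehydrogenases such as CKX2 destroy it. Receptor histidine kinases pass the signal by phosphotransfer to type-B response regulators, which are transcription factors. Their targets include the type-A response regulators, short proteins without a DNA-binding output domain that are induced by cytokinin and dampen the response. The level of type-A transcripts is therefore often read as a measure of cytokinin response.

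Members of the pathway differed between HDS and CS leaves in both directions. The criteria were those of the study, applied after a scaling (TMM) chosen here: in the exact test of edgeR, a program that compares read counts between groups, P without adjustment had to be under 0.05 and the absolute log2 fold change 0.37 or more. By these criteria RR4 and CKX2 rose in HDS leaves (2 of 10), whereas LOG, RR6, RR9 and RR10 fell (4 of 10). RR9 and RR10 share reads, so the 2 may not be independent in this count and in those that follow. The 10 genes were also chosen with earlier results of these data known, which limits any comparison with the shares over all genes. Across all genes, 7.88% of the 29698 genes with counts met the same criteria (4.18% higher and 3.7% lower), and among the 22184 genes with enough counts for edgeR's filterByExpr function the share was 9.15%. The criteria were not met by RR1, RR2 or RR3, and RR5 had no counts. After Benjamini-Hochberg adjustment for all genes tested, LOG and CKX2 (2 of the 10) had an adjusted P under 0.05 in edgeR's exact test. So did 2.38% of the 29698 genes. The same 2 genes passed in DESeq2, as did 2.28% of the 23940 genes tested there. In edgeR's quasi-likelihood test, 0 of the 10 had an adjusted P under 0.05 and 6 had an unadjusted P under 0.05. Of the 22184 genes kept by filterByExpr, the shares were 0.699% and 9.23%.

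The libraries held between 15444235 and 17298384 expected counts, and levels are given as CPM, read counts scaled to the size of the library, after TMM scaling, edgeR's correction for differences in library composition. CPM values are not divided by transcript length, so they compare 1 gene between libraries and not different genes. The errors are SDs over 2 plants (n = 2 per group), and each log2 fold change is HDS over CS. The standard errors are those of the difference of mean log2 CPM and not of the fitted log2 fold change printed beside them. That difference was 1.67 for CKX2 and -0.55 for RR3, against fitted values of 1.86 and -0.76. Of the 9 genes with counts, 8 had both HDS libraries on the same side of both CS libraries, 4 above and 4 below, while RR3 overlapped. Among all genes kept by filterByExpr, 40.5% did not overlap (21.2% above and 19.3% below). The median absolute log2 fold change was 0.56 over the 9 genes and 0.20 over all genes kept. The signed median was -0.40 over the 9 genes and 0.01 over all genes kept. In bulk leaf RNA, fewer cells that express a gene and less RNA per cell cannot be told apart.

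**Figure D1:**
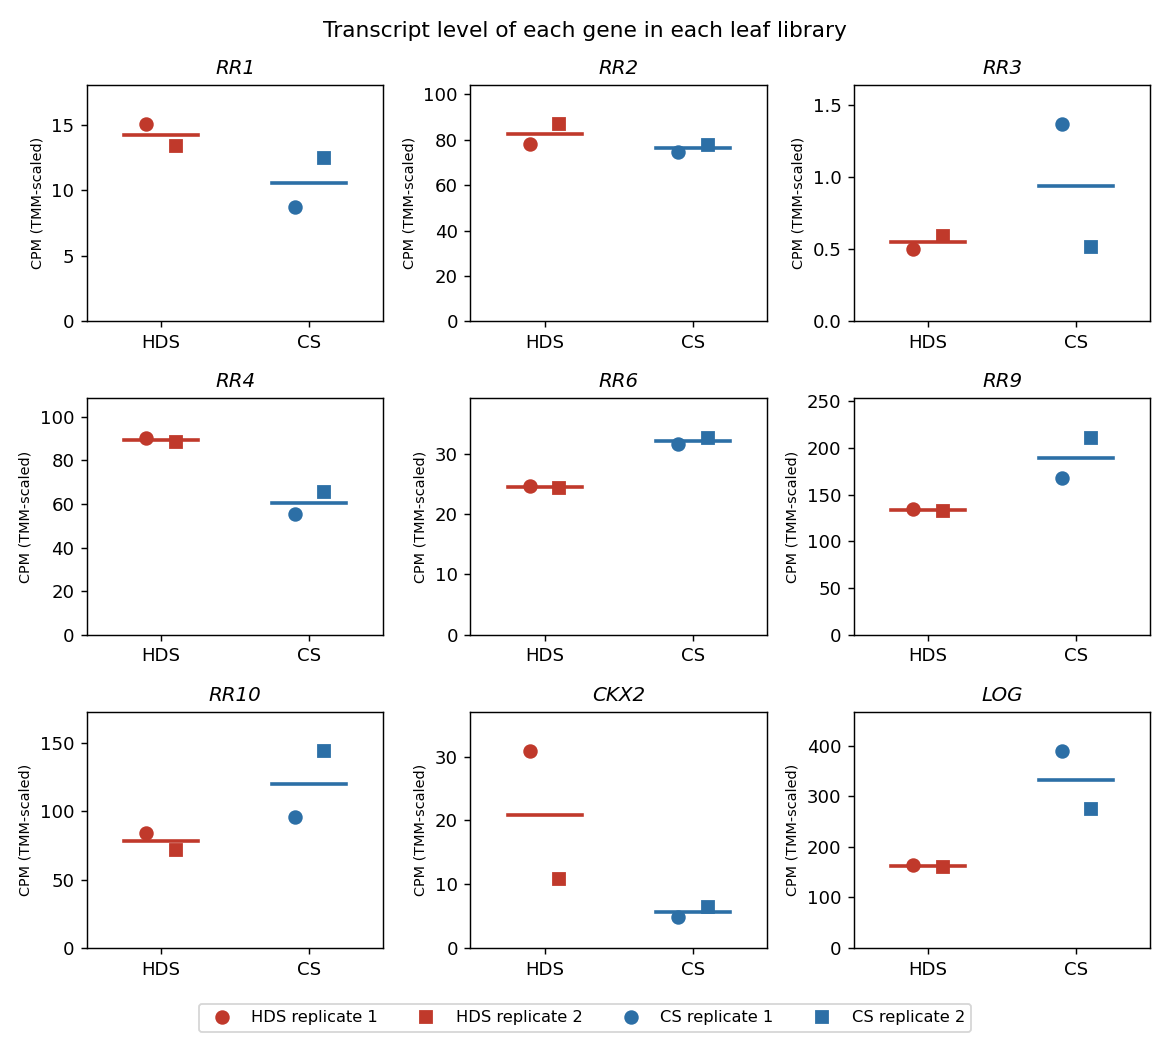
Transcript level (CPM, TMM-scaled, y axis from 0) of the 9 genes with counts in the 2 HDS libraries (red, left) and the 2 CS libraries (blue, right). Circles are replicate 1, squares are replicate 2 and horizontal lines are group means. RR3 is the gene whose groups overlap, and CKX2 has the widest gap between the HDS libraries (30.9 and 10.8 CPM).

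RR4 (Os01g0952500, chromosome 1) was the type-A gene that rose in HDS leaves. Its counts were 1618 and 1491 in the HDS libraries, against 810 and 1134 in the CS libraries. Both HDS plants lay close together and above both CS plants. The level was 89.5 ± 1.32 CPM in HDS leaves and 60.4 ± 7.04 CPM in CS leaves (SD, n = 2 each), which is 1.48-fold higher. The log2 fold change was 0.57 (standard error 0.12, edgeR's exact test, P = 0.00204, adjusted P = 0.0774). The 95% interval from the quasi-likelihood fit ran from 0.23 to 0.90. Without HDS replicate 1, which leaves 1 HDS library in the fit, the value was 0.55 and P was 0.0593, above the limit.

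RR1 (Os04g0442300, chromosome 4), whose protein binds the flowering regulator Ehd1 in rice, had 269 and 224.65 expected counts in the HDS libraries, against 127.25 and 216.23 in the CS libraries. After scaling these gave a mean of 14.2 ± 1.18 CPM in HDS leaves and 10.6 ± 2.66 CPM in CS leaves (SD, n = 2 each). The groups did not overlap, but CS replicate 2, at 12.4 CPM, lay near the lower HDS library, at 13.4 CPM. The log2 fold change of 0.42 (standard error 0.27) did not meet the criteria (P = 0.158 by edgeR's exact test), and its 95% interval ran from -0.14 to 0.98. The value rested on the CS libraries, as it was 0.19 when CS replicate 1 was left out. When CS replicate 2 was left out it was 0.69, and P was 0.0175 by the exact test. That fit holds 1 CS library, whose spread is taken from the HDS libraries, and it called 18.6% of all genes.

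The expected counts of RR1 were whole in HDS replicate 1 and not whole in the other 3 libraries, since RSEM, the program the authors used to count, shares out reads that map to more than 1 gene. A search of the table for a gene whose counts add up with those of RR1 to whole numbers in all 4 libraries (within 0.01) found 1 gene, Os04g0442200, which is the row next to RR1. It had 491 and 438.35 expected counts in the HDS libraries, against 239.75 and 406.77 in the CS libraries. Together the pair had 760 and 663 counts in the HDS libraries, against 367 and 623 in the CS libraries. RR1 held 35.4% and 33.9% of the pair's counts in HDS leaves (exact binomial 95% intervals 32.0% to 38.9% and 30.3% to 37.7%), against 34.7% in each CS library (29.7% to 39.7% and 30.9% to 38.6%). The 4 shares lay within each other's intervals, which cover counting error only. Summed, the pair had a log2 fold change of 0.42 (P = 0.0773 by edgeR's exact test). Most of this sum is the neighbour's counts, so it describes the pair. How many reads of RR1 were divided was not measured, so how far its own value depends on the division is not known.

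RR2 (Os02g0557800, chromosome 2), which acts in crown root formation in rice, had 1400 and 1461 counts in the HDS libraries, against 1091 and 1350 in the CS libraries. This is 78.2 and 86.8 CPM in HDS leaves and 74.7 and 77.8 CPM in CS leaves. HDS replicate 1 and CS replicate 2 were nearly level. The log2 fold change was 0.11 (standard error 0.08, P = 0.52 by edgeR's exact test), and the 95% interval from -0.20 to 0.42 leaves room for a change in either direction. Among the members with counts, RR2 had the smallest difference.

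RR9 (Os11g0143300, chromosome 11) and RR10 (Os12g0139400, chromosome 12) are closely related copies that act as negative regulators of salt tolerance in rice, and both fell in HDS leaves. RR9 had 2413.69 and 2230.33 expected counts in the HDS libraries, against 2455.69 and 3656.10 in the CS libraries. RR10 had 1510.31 and 1211.67 in the HDS libraries, against 1401.31 and 2498.90 in the CS libraries. CS replicate 2 was the highest library for both genes, and CS replicate 1 lay between it and the HDS libraries once depth was taken into account. RR9 stood at 134 ± 1.74 CPM in HDS leaves and 189 ± 30.2 CPM in CS leaves (SD, n = 2 each), a log2 fold change of -0.50 (standard error 0.16, edgeR's exact test, P = 0.00934, adjusted P = 0.235). RR10 stood at 78.2 ± 8.77 CPM in HDS leaves and 120 ± 34.1 CPM in CS leaves (SD, n = 2 each), a log2 fold change of -0.62 (standard error 0.32, edgeR's exact test, P = 0.0109, adjusted P = 0.259).

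Neither gene's counts were whole, but their sum was a whole number in each library, as reads divided between these 2 genes would give. The pair had 3924 and 3442 counts in the HDS libraries, against 3857 and 6155 in the CS libraries. RR9 took 61.5% and 64.8% of them in HDS leaves (exact binomial 95% intervals 60.0% to 63.0% and 63.2% to 66.4%), against 63.7% and 59.4% in CS leaves (62.1% to 65.2% and 58.2% to 60.6%). The intervals cover counting error only. The 2 groups overlapped in the share of RR9, so the split between the copies did not separate HDS from CS leaves. The summed pair was at 212 ± 10.5 CPM in HDS leaves and 309 ± 64.3 CPM in CS leaves (SD, n = 2 each). Its log2 fold change was -0.55 (edgeR's exact test, P = 0.00953, adjusted P = 0.238), and its 95% interval ran from -0.99 to -0.10. How many reads the 2 genes share was not measured, so their 2 results cannot be taken as independent.

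**Figure D2:**
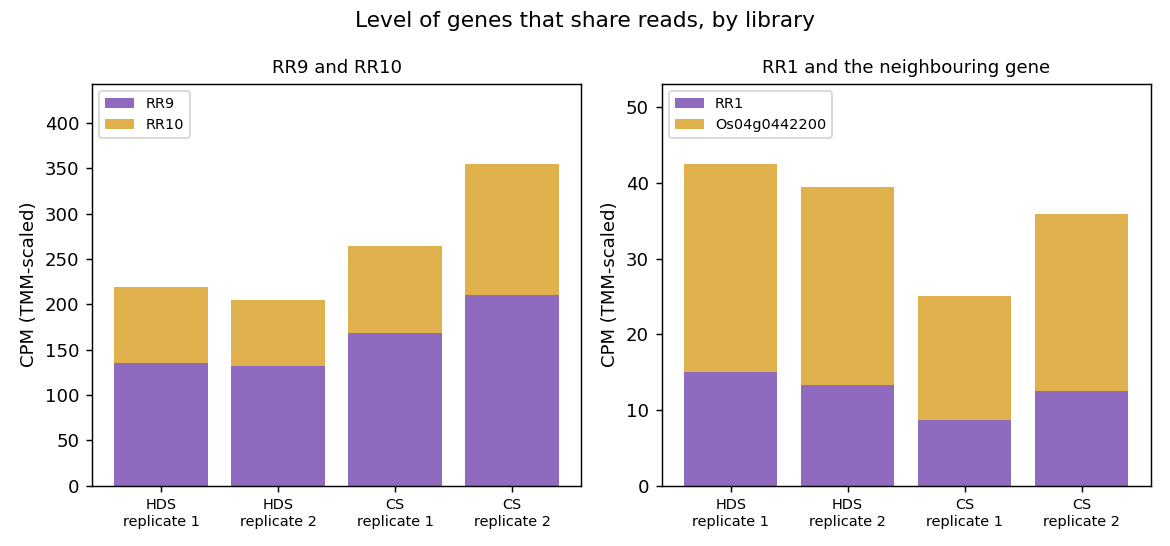
Level (CPM, TMM-scaled, y axis from 0) of 2 pairs of genes that share reads, in each library, with the 2 HDS libraries left of the 2 CS libraries. Left, RR9 (purple) and RR10 (yellow) sum to 219 and 204 CPM in the HDS libraries and to 264 and 355 CPM in the CS libraries. Right, RR1 (purple) and its neighbour (yellow) sum to 42.5 and 39.4 CPM in the HDS libraries and to 25.1 and 35.9 CPM in the CS libraries.

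The calls of RR9 and RR10 depended on single libraries. The value of RR9 was -0.35 without CS replicate 2, below the fold limit, and P was 0.101 and 0.122 by edgeR's exact test without HDS replicates 1 and 2. That of RR10 was -0.32 without CS replicate 2 (P = 0.0732 by the exact test) and -0.51 without HDS replicate 2 (P = 0.146). Without CS replicate 1 both genes lay further from 0, at -0.66 for RR9 and -0.89 for RR10.

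RR6 (Os04g0673300, chromosome 4), which lowers cytokinin sensitivity when overexpressed in rice, had 440 and 409 counts in the HDS libraries, against 463 and 567 in the CS libraries. After scaling, the plants of each group were nearly identical, at 24.6 and 24.3 CPM in HDS leaves and 31.7 and 32.7 CPM in CS leaves. The difference was small but larger than the spread between plants, with a log2 fold change of -0.40 (standard error 0.02). It met the criteria narrowly (edgeR's exact test, P = 0.0485, adjusted P = 0.622), and its 95% interval ran from -0.73 to -0.07. The call ended with total counts in place of TMM (-0.33, P = 0.112 by the exact test), with DESeq2 (P = 0.0531) and without either HDS library (P = 0.244 and 0.267 by the exact test). The direction was the same in each of these fits.

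The remaining type-A genes were at or near the limit of detection. RR3 (Os02g0830200, chromosome 2) had 9 and 10 counts in the HDS libraries, against 20 and 9 in the CS libraries. Only CS replicate 1 stood apart, and the groups overlapped. Its log2 fold change of -0.76 (standard error 0.62, P = 0.346 by edgeR's exact test) turned to 0.07 without CS replicate 1, and its 95% interval ran from -2.36 to 0.84. RR5 (Os04g0524300, chromosome 4) had 0 counts in all 4 libraries, which allows up to 3 counts per library, or 0.168 and 0.178 CPM in the HDS libraries and 0.205 and 0.173 CPM in the CS libraries. A difference in RR5 was not detectable at this depth.

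Summed over the 8 type-A genes, the HDS libraries held 428 and 418 CPM, against 436 and 544 CPM in the CS libraries. CS replicate 1 was close to the HDS libraries in this sum, and CS replicate 2 was higher. RR9 and RR10 made up 51.2% and 48.9% of the type-A counts in HDS leaves (exact binomial 95% intervals 50.1% to 52.4% and 47.7% to 50.1%), against 60.6% and 65.3% in CS leaves (59.4% to 61.8% and 64.3% to 66.2%). The intervals cover counting error only, not differences between plants, and those of the 2 CS plants did not touch each other. Without RR9 and RR10, the type-A sum was 209 and 214 CPM in the HDS libraries, against 172 and 189 CPM in the CS libraries. By the study's criteria, which do not adjust P, the genes of this group did not move as a block. RR4 was higher while RR6, RR9 and RR10 were lower in the same HDS leaves. These calls did not pass adjustment in edgeR's exact test (adjusted P = 0.0774, 0.622, 0.235 and 0.259 in that order).

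LOG (Os01g0588900, chromosome 1), the enzyme that forms active cytokinin in a single step and is known in rice for keeping the shoot meristem active, fell in HDS leaves. It had 2936 and 2688 counts in the HDS libraries, against 5690 and 4774 in the CS libraries. The HDS plants were alike, and both were well below the lower CS plant. The level was 162 ± 3.13 CPM in HDS leaves and 332 ± 80.7 CPM in CS leaves (SD, n = 2 each), which is 2.05-fold lower in HDS leaves. The log2 fold change was -1.04 (standard error 0.25, edgeR's exact test, P = 3.14e-06, adjusted P = 0.000326). Its 95% interval ran from -1.52 to -0.56, and the adjusted P was 0.113 in edgeR's quasi-likelihood test. LOG and CKX2 were the members past a log2 fold change of 1. Leaving out any 1 library gave values of LOG between -1.29 and -0.77, and it met the study's criteria each time.

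CKX2 (Os01g0197700, chromosome 1), which breaks down cytokinin and is known in rice for limiting grain number in the panicle, rose in HDS leaves and had the largest difference among the 9 genes with counts. It had 553 and 182 counts in the HDS libraries, against 72 and 113 in the CS libraries. Both HDS plants lay above both CS plants, but HDS replicate 1 was 2.86-fold above HDS replicate 2. The level was 20.9 ± 14.2 CPM in HDS leaves and 5.72 ± 1.12 CPM in CS leaves (SD, n = 2 each). The fitted difference was 3.64-fold, a log2 fold change of 1.86 (standard error 0.78, edgeR's exact test, P = 0.000264, adjusted P = 0.0145), and 434 of the 22184 genes kept by filterByExpr, CKX2 included, had an absolute value at least as large. Its 95% interval ran from 0.67 to 3.06, and the adjusted P in edgeR's quasi-likelihood test was 0.253. A single plant carried much of this value, which was 0.92 without HDS replicate 1 (P = 0.0664 by edgeR's exact test, above the limit) and 2.43 without HDS replicate 2.

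**Figure D3:**
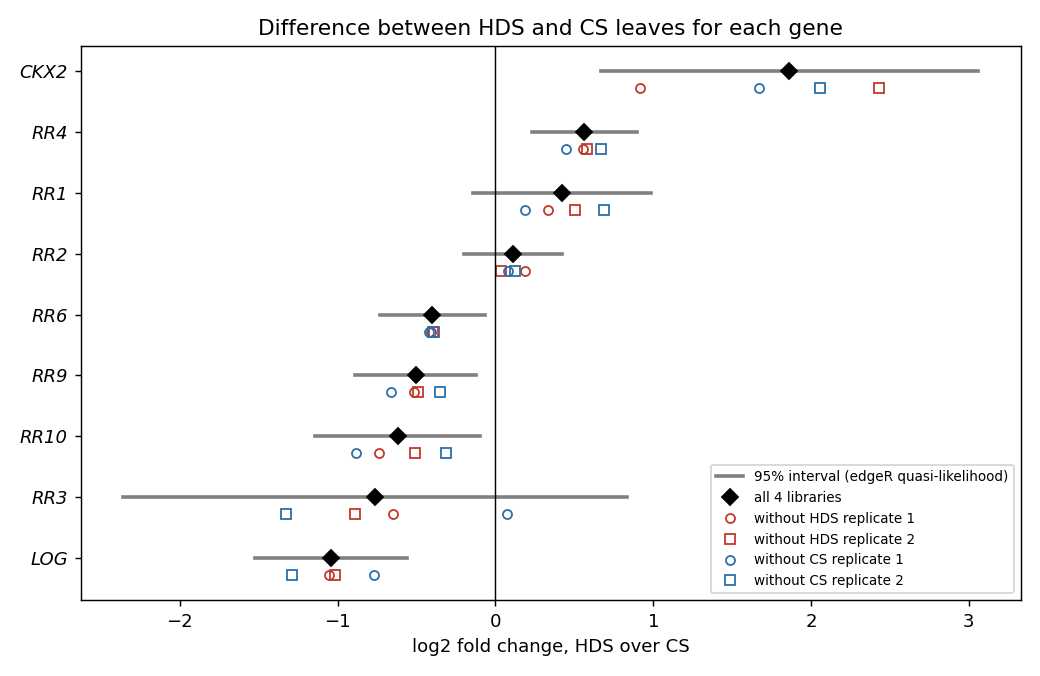
Log2 fold change (x axis, HDS over CS) of the 9 genes with counts. Black diamonds are the values from all 4 libraries, grey lines their 95% intervals from edgeR's quasi-likelihood fit, and open symbols the values from the exact test with 1 library left out (red, an HDS library; blue, a CS library). The open symbols of LOG run from -1.29 to -0.77, those of CKX2 from 0.92 to 2.43, and that of RR3 without CS replicate 1 lies on the other side of 0.

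Within groups, the HDS plants were closer to each other than the CS plants in 7 of the 9 genes, the exceptions being RR2 and CKX2. Over all genes kept by filterByExpr this was so for 64.9%. The median gap between the 2 plants was 0.15 in HDS leaves and 0.40 in CS leaves on the log2 scale over the 9 genes, and 0.17 in HDS leaves and 0.29 in CS leaves over all genes kept. CS replicate 2 was above CS replicate 1 in RR1, RR2, RR4, RR6, RR9, RR10 and CKX2, and below it in RR3 and LOG. The larger part of the uncertainty in RR9, RR10 and LOG thus came from the CS plants, and that in CKX2 from the HDS plants. The leaf label was not checked against marker genes.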

How the data were processed

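The authors deposited 1 table of RSEM expected counts per gene, without normalization, from strand-specific libraries of leaf RNA. Per the submitters' processing notes, FastQC 0.11.7, Trimmomatic, Bowtie2, RSEM, edgeR 3.26.3 and the build IRGSP-1.0 were used. The table held 37858 genes, 0 rows that name no gene and 0 unused columns.

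Samples were grouped by their labels. Expected counts were rounded and analysed in R 4.3.3. The study's test, edgeR's exactTest (edgeR 4.0.16) with an unadjusted P, was run on the 29698 genes with at least 1 count. The scaling, TMM, was chosen here, as the paper's text does not state one beyond CPM. The quasi-likelihood test (glmQLFit, glmQLFTest), with Benjamini-Hochberg adjustment, used the 22184 genes that passed filterByExpr, and its F statistic gave the 95% intervals. DESeq2 1.42.0 was an alternative, as were the settings given at the end. Log2 CPM used a prior count of 2. Both edgeR tests were tested on simulated data. Totals of 15444235 to 17298384 expected counts limit precision for genes with few counts.

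The members and lists were chosen with earlier results of these data known. The named genes are the 10 members. The text also names Os04g0442200, chosen after its values were seen. Lists of 53 other cytokinin pathway genes and 10 marker genes required an annotation by the gene table, which matched 0 of either, so they were not analysed here. Protein, promoter and coordinate data were not used here.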

Additional observations from a re-analysis of the deposited data

How the results depend on the processing

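Of all genes, 7.88% met the study's criteria, as did 7.67% to 7.91% under the other normalizations and 7.91% with counts that were not rounded. The share was 9.38% with filterByExpr, 5.9% with DESeq2, 8.98% with the quasi-likelihood test and 4.49% with a log2 fold limit of 1. Shares here and below are of the genes tested in each fit. Of the 10 genes, 6 met the study's criteria. Under the other normalizations, filterByExpr, counts that were not rounded, DESeq2 and the quasi-likelihood test with unadjusted P-values, 5 or 6 did so. RR6 was the gene lost with total counts and with DESeq2. With adjusted P-values in edgeR's exact test 2 did so, as did 2 with a log2 fold limit of 1, and 2 to 6 when a single library was dropped. The lowest count, 2, came without HDS replicate 1, and 3 met the criteria without HDS replicate 2. A fit with 1 library in a group takes that group's spread from the other group. The HDS plants are closer together, and the share of all genes that met the criteria was 3.9% and 5% without HDS replicates 1 and 2, but 7.37% and 18.6% without CS replicates 1 and 2. By the adjusted quasi-likelihood test 0 genes passed. The number was 1 (LOG) without the filter on low counts (1.41% of all genes), 2 (LOG and CKX2) with DESeq2 (2.28%), and 0 to 3 when a single library was dropped. It was 1 without HDS replicate 2 (CKX2; 0.558% of all genes), 3 without CS replicate 1 (RR9, RR10 and LOG; 2.18%) and 2 without CS replicate 2 (RR4 and LOG; 10.9%), and the last 2 fits take the CS spread from the HDS plants. In these fits the direction turned in RR3 only, whose log2 fold change ran from -1.33 to 0.074, the highest being that without CS replicate 1. The log2 fold change of RR1 summed with its neighbour, an alternative chosen after seeing the data, was 0.42.

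The replicate numbers are labels that nothing ties to a shared batch, and same-numbered plants did not deviate together (correlation 0.00396 across genes). With the replicate block, 5 of the 10 genes (those above without RR6) met the fold limit and an unadjusted P under 0.05 in edgeR's quasi-likelihood test (9.75% of all genes), and 2, LOG and CKX2, had an adjusted P under 0.05 (0.0219 and 0.0235), as did 2.4% of all genes.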
